A study of Mus musculus with 48 samples.

Results

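Whole lung RNA of bleomycin-exposed mice given KIRA8 was compared with that of bleomycin-exposed control mice. The comparison rested on 10 of the 48 libraries of the series, 5 from KIRA8 mice and 5 from control mice, 1 whole lung library per mouse. They were taken by their labels: whole lung, bleomycin exposure, batch S061 or S135. Batch S061 held 3 KIRA8 mice (20, 32 and 41) and 3 control mice (17, 31 and 45), with 2 females and 1 male in each arm. Batch S135 held 2 KIRA8 mice (154 and 155) and 2 control mice (148 and 149), all male. Control mice of both batches received a vehicle. A further 3 saline mice of S135 (146, 152 and 153), also given a vehicle, served as a reference level, and S151 contributed 4 bleomycin mice and 3 saline mice given Axum8 as the control agent, and 4 bleomycin mice given 3G9. The labels describe RiboTag precipitation with an anti-HA antibody and 3′-end libraries for epithelial and whole lung samples alike, and they do not say whether whole lung libraries hold ribosome-bound or total RNA. Nor do they give the strain, the Cre driver, age, doses or the day of sampling.

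KIRA8 is a small molecule that binds the kinase domain of IRE1α and dampens its RNase. IRE1α is a sensor of unfolded protein in the endoplasmic reticulum; its RNase splices the mRNA of the transcription factor XBP1 and can degrade other mRNAs. Bleomycin injures the lung epithelium and is widely used to produce lung inflammation and fibrosis in mice. In whole lung a change of an mRNA can come from any cell type, and fewer cells of a type cannot be told apart from less RNA per cell.

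The deposited table names genes by Ensembl ID, and the reference table of symbols used here matched 0 of its 42548 IDs. Genes are therefore described as groups that the data define, and at most 2 IDs per direction are given for a comparison. No role is stated for them, no list of pathway genes or cell markers could be applied, and the labelled tissue was not checked against its markers.

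The S061 libraries stood apart. A set of 146 genes, each at 50 CPM or more in every S061 library and with a median below 0.5 CPM in the other batches, took 7.21% to 9.81% of the counts of the 6 S061 whole lung libraries. CPM are counts scaled to a common effective library size, on which levels of a gene can be compared between mice but not between genes. In S135 the set took at most 0.0438%, apart from control mouse 149 with 0.846%. These genes were set aside before scaling. A wider set of 605 genes, which includes the 146 and is called S061-high here, took 19.3% to 24.8% in S061 and 0.54% to 0.75% in S135, again apart from mouse 149 with 2.39%. Its most abundant member outside the 146 lay at 47771 to 67698 CPM in S061, at 4286 CPM in mouse 149 and at 2.49 CPM or less in the other S135 libraries. S061-high genes were kept out of the gene groups and IDs below. Total counts ran from 21864200 to 51797377 in S061 and from 11571126 to 20468041 in the 4 bleomycin libraries of S135, where both KIRA8 libraries were shallower than both control libraries.

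Over both batches, 80 genes were higher and 45 were lower in KIRA8 than in control whole lung at an adjusted p below 0.05, of 19283 tested (0.648% called in either direction, 0.415% higher and 0.233% lower). The test was edgeR's quasi-likelihood test with Benjamini-Hochberg adjustment over all genes tested. The spread was estimated over all 24 whole lung libraries of the series, and the effect weighted S061 by 0.6 and S135 by 0.4. At an unadjusted p below 0.05 there were 3068 genes. When only the 10 libraries of the comparison were fitted, with additive terms for batch and arm and their own filter on low counts, edgeR called 0 of 16021 genes; 2715 had an unadjusted p below 0.05 and the smallest adjusted p was 0.0663. Both fits take the KIRA8 effect from the same 10 libraries in which the 125 genes were called, so their agreement is not independent. Of the 125 genes, 118 had the same sign with 10 libraries, and 113 had an unadjusted p below 0.05 (edgeR). Genes that the other filter removed were counted in neither number. A fit of the 10 libraries with 1 mean per batch and arm, over the same 19283 genes, was added after the data were seen and called 148 genes, 94 higher and 54 lower, of which 53 were among the 125. The parts of the terms and of the filter in the difference between 0 and 148 were not tested apart.

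The number of called genes also moved with single mice. It fell from 125 to 26 without KIRA8 mouse 32, to 29 without control mouse 17, to 49 without KIRA8 mouse 155, to 53 without KIRA8 mouse 154, to 61 without control mouse 45 and to 81 without KIRA8 mouse 41. It rose to 209 without control mouse 149, to 261 without KIRA8 mouse 20 and to 285 without control mouse 148. It was 301, with 175 higher and 126 lower, without the whole lung library of 3G9 mouse 218, which is in neither arm but adds to the spread; its column name carries an unexplained suffix, and this fit was added after the data were seen. Without mouse 148 the balance of the calls turned towards lower genes. That fit left mouse 149, with 2.39% of its counts in S061-high genes, as the only S135 control. S061-high genes were not kept out of these numbers, and their median log2 KIRA8 effect in S135 was -1.15 with all mice. How many of the lower calls belonged to them was not counted, so the turn is not read as a KIRA8 effect. The values of single genes below are therefore given for each mouse.

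ENSMUSG00000001131 was the called gene with the largest fall among those outside the S061-high set that had at least 5 counts in every library and the same sign in both batches. In S061 it lay at 792, 700 and 655 CPM in control mice 17, 31 and 45, and at 296, 108 and 276 CPM in KIRA8 mice 20, 32 and 41. In S135 it lay at 135.2 and 38.8 CPM in control mice 148 and 149, at 19.2 and 22.0 CPM in KIRA8 mice 154 and 155, and at 1.54, 4.20 and 1.63 CPM in the saline mice. All KIRA8 mice lay below all control mice of their batch, and the S135 KIRA8 mice lay between control and saline. The log2 fold change was -1.83 ± 0.38 (SE, n = 5 and 5; adjusted p = 0.0346, edgeR), with -1.66 in S061 and -2.08 in S135. In S151, whose mice are in neither arm, bleomycin raised the gene by 4.41 on the log2 scale (adjusted p = 0.000357, edgeR) in a test that called 3.42% of genes. Saline mice there averaged 7.78 CPM (SD 0.70, n = 3) and bleomycin mice 165 CPM (SD 85.2, n = 4).

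ENSMUSG00000026580 fell by 1.39 on the log2 scale over both batches (SE 0.28; adjusted p = 0.0227, edgeR). Control mice had 23.9, 27.96 and 24.4 CPM in S061 and 14.1 and 5.54 CPM in S135. KIRA8 mice had 12.1, 8.87 and 6.51 CPM in S061 and 2.91 and 5.33 CPM in S135. The arms did not overlap in either batch, although in S135 the KIRA8 mouse with the higher value nearly reached the lower control mouse. The 3 saline mice of S135 had 4.02, 3.67 and 5.66 CPM, which overlapped the KIRA8 mice. Bleomycin raised this gene in S151 as well, by 1.66 on the log2 scale (adjusted p = 0.0111, edgeR). Both genes were lower in the epithelial than in the whole lung libraries of the saline mice of S151. With 1 mouse left out, the call of ENSMUSG00000001131 was lost in 7 of 10 fits and that of ENSMUSG00000026580 in 5, with log2 fold changes of -2.08 to -1.36 and -1.60 to -1.06.

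In both higher genes given here, KIRA8 mouse 32 had the highest level. ENSMUSG00000025330 had 2.83, 15.4 and 3.36 CPM in KIRA8 mice 20, 32 and 41 against 1.23, 2.96 and 1.16 CPM in the S061 control mice. In S135 it had 1.71 and 5.02 CPM in KIRA8 mice against 0.393 and 0.298 CPM in control mice. The arms overlapped in S061, where control mouse 31 exceeded KIRA8 mouse 20, and saline mice of S135 ranged from 0.63 to 4.81 CPM. The log2 fold change was 2.51 ± 0.58 (SE; adjusted p = 0.0479, edgeR), and without KIRA8 mouse 32 it was 1.78 with an adjusted p of 0.181.

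ENSMUSG00000021123 had 13.7, 47.0 and 7.76 CPM in the S061 KIRA8 mice against 1.97, 10.5 and 5.28 CPM in their controls. In S135 it had 7.95 and 8.34 CPM in KIRA8 mice, 3.34 and 1.19 CPM in control mice and 3.15 to 5.36 CPM in saline mice. Again control mouse 31 lay above 1 KIRA8 mouse, and mouse 32 lay far above the rest. The log2 fold change of 1.90 ± 0.44 (SE; adjusted p = 0.0479, edgeR) became 1.25 without mouse 32, with an adjusted p of 0.185. Bleomycin in S151 changed neither of the 2 higher genes at the threshold (log2 -0.13 with adjusted p = 0.955 and -0.24 with adjusted p = 0.867, edgeR). With 1 mouse left out, the call of ENSMUSG00000025330 was lost in 7 of 10 fits and that of ENSMUSG00000021123 in 6.

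**Figure D1:**
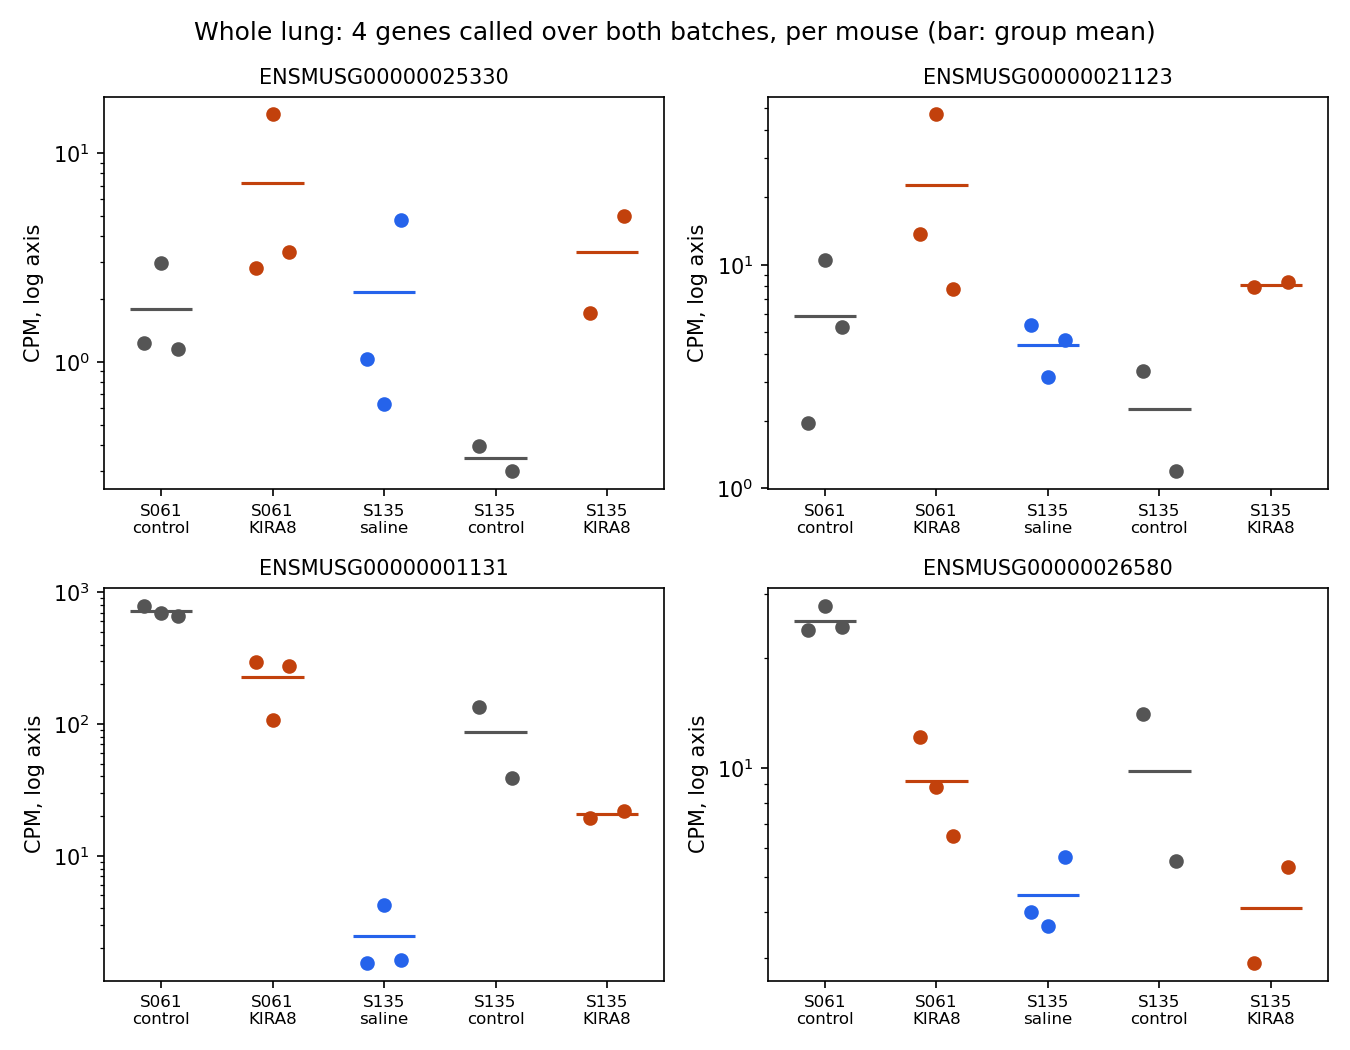
CPM on log axes for 4 genes called over both batches, 1 point per mouse and a bar at each group's mean, for S061 control (n = 3) and KIRA8 (n = 3) and S135 saline (n = 3), control (n = 2) and KIRA8 (n = 2) mice. In the lower panels KIRA8 points lie below the control points of their batch; in the upper panels KIRA8 mouse 32 is the highest point, at 15.4 and 47.0 CPM.

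Calls within S061 were about as many as those over both batches, and S135 had few. In S061, 106 genes (0.55%) were higher and 48 (0.249%) lower in KIRA8 (0.799% called in either direction; 2291 genes at an unadjusted p below 0.05; edgeR). In S135, with 2 mice per arm, 0 were higher and 2 were lower (0.0104% called; 1880 at an unadjusted p below 0.05; edgeR). Fitted on their own 4 libraries, S135 mice gave 0 calls with 1320 genes at an unadjusted p below 0.05. The S061 number fell to 33 without KIRA8 mouse 32, to 38 without control mouse 17, to 52 without control mouse 45 and to 97 without KIRA8 mouse 41. The S135 number rose without control mouse 148, but that fit left only mouse 149, with its S061-high transcripts, as S135 control. S061-high genes were not kept out of the number, so the rise is not read as a KIRA8 effect. The S135 calls were lost without KIRA8 mouse 154 or 155.

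S061 and S135 share no mouse, so genes called in S061 can be read in S135. Of the 105 genes higher in S061 and outside the S061-high set, 84 (80.0%) were above 0 in S135, where 48.5% of all genes were. Their median log2 fold change was 1.16 in S061 and 0.25 in S135. Of the 48 genes lower in S061, 28 (58.3%) were below 0 in S135, against 47.6% of all genes, and the median went from -1.01 to -0.09. The direction thus recurred for most of the higher genes at a smaller size, and for the lower genes at a share closer to that of all genes. Medians in the batch where genes were called are raised in size by the calling itself.

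The higher genes called over both batches leaned on S061 in a similar way, and the lower genes did so less. The 80 higher genes had a median of 1.18 in S061 and 0.44 in S135, and 76 had the same sign in both. The 43 lower genes outside the S061-high set had medians of -0.97 and -0.75, and 42 had the same sign. Across all 18824 genes outside that set the signs matched for 57.9%, and because the call uses both batches the matching signs of called genes are a description. All KIRA8 mice lay above all control mice within each batch for 53 of the 80, and below them for 29 of the 43. Of all genes, 3.34% and 2.88% were separated so. The genes were called in these same mice, so their larger share is a description too. A change of at least 2-fold was seen for 29 of the 80 and 20 of the 43, and for 1997 of the 18824 genes outside the S061-high set. This is again a description, for the same reason. The other 2 lower genes belonged to the S061-high set. One was its most abundant member, described above, whose log2 fold change was -4.24 (adjusted p = 0.0480, edgeR) with -0.08 in S061 and -10.48 in S135, where mouse 149 alone held a high level.

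**Figure D2:**
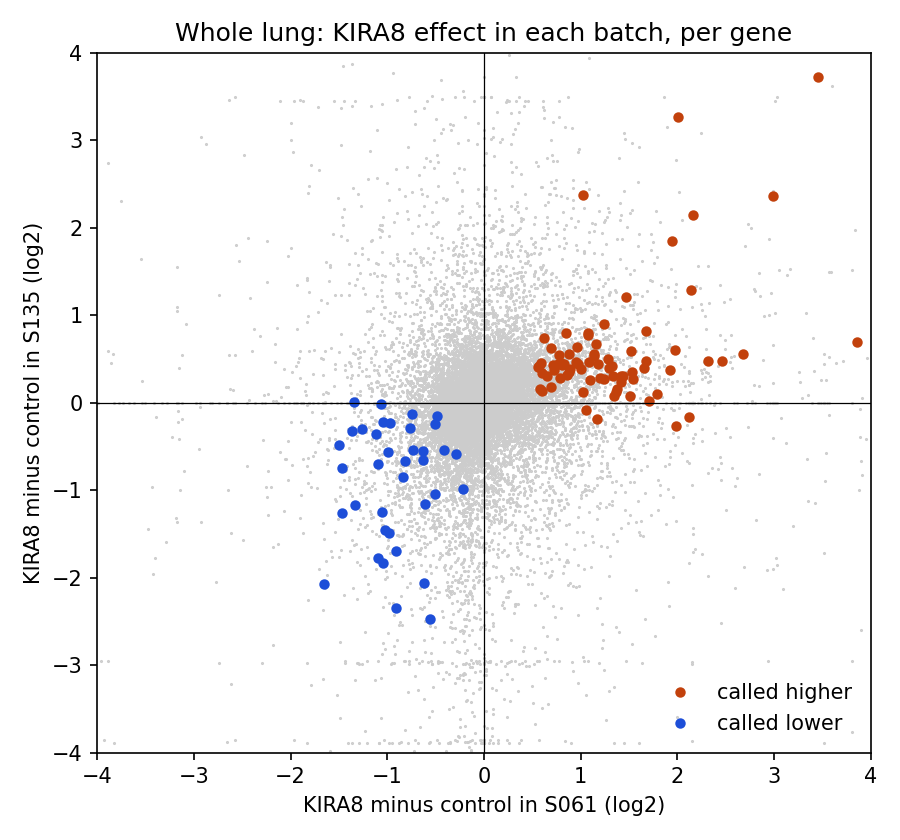
Log2 fold change of KIRA8 against control in S061 (horizontal) and S135 (vertical) for each gene (grey), with genes called higher (orange) and lower (blue) over both batches; 113 of the 125 called genes lie within the axes. Most orange points lie further from 0 along the S061 axis, with medians of 1.18 and 0.44 for the 80 genes.

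The 4 genes given for S061, chosen for large called changes in these same mice, showed separated arms there. Of all 18824 genes outside the S061-high set, 1864 were separated higher and 1976 lower in S061. ENSMUSG00000037846 had 31.6, 66.8 and 36.7 CPM in KIRA8 mice against 7.21, 11.4 and 5.88 CPM in control mice. KIRA8 minus control was 2.46 in log2 units, with an SE of 0.33 (edgeR, adjusted p = 0.000565). In S135 it was much more abundant in every mouse, with 242 and 251 CPM in KIRA8, 107 and 247 CPM in control and 245, 287 and 331 CPM in saline mice. The KIRA8 mice of S135 straddled the higher control mouse, and the log2 fold change there was 0.48 (adjusted p = 0.745, edgeR). This gene was higher in the epithelial libraries of saline S151 mice, at 385 ± 101 CPM, than in their whole lung libraries, at 157 ± 4.80 CPM (SD, n = 3 each).

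ENSMUSG00000027524 had 3.56, 14.5 and 5.59 CPM in S061 KIRA8 mice against 1.05, 1.85 and 1.76 CPM in control mice (log2 2.32 ± 0.46 SE; adjusted p = 0.0165, edgeR). Without KIRA8 mouse 32 it was at 1.52 with an adjusted p of 0.165. It was also lower in S061 than in S135, where control mice had 8.65 and 15.6 CPM, KIRA8 mice 16.3 and 17.5 CPM and saline mice 23.8, 27.6 and 26.8 CPM. Here the S135 groups were ordered control, KIRA8, saline, without overlap; the log2 KIRA8 effect of 0.48 in S135 did not pass the threshold (adjusted p = 0.856, edgeR).

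Among lower genes of S061, ENSMUSG00000048758 varied little within an arm. Control mice had 66.0, 67.0 and 70.1 CPM and KIRA8 mice 20.9, 25.9 and 25.1 CPM (log2 -1.50 ± 0.22 SE; adjusted p = 0.00103, edgeR). In S135 the level was 4.98 and 5.24 CPM in control, 4.36 and 2.91 CPM in KIRA8 and 5.67 to 12.6 CPM in saline mice. The S061 call of this gene, and that of ENSMUSG00000037846, held in all 10 fits that left out 1 mouse. Those without an S135 mouse keep both arms of S061 whole, so they put these calls to little trial. The call of ENSMUSG00000037846 was lost (adjusted p = 0.0714, edgeR) with only the 10 libraries and 1 mean per batch and arm.

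ENSMUSG00000064080 fell in S061 from 38.0, 33.4 and 22.6 CPM in control mice to 15.3, 4.50 and 6.35 CPM in KIRA8 mice (log2 -1.85 ± 0.36 SE; adjusted p = 0.0156, edgeR). In S135 it had 10.7 and 11.4 CPM in control and 15.6 and 8.74 CPM in KIRA8 mice. There the control values lay between the KIRA8 values, and the log2 fold change was 0.14. The S061 call was lost without control mouse 17, KIRA8 mouse 32 or KIRA8 mouse 41.

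Both genes called in S135 were at 0 counts in KIRA8 mice 154 and 155. ENSMUSG00000102353 had 25 and 21 counts in control mice 148 and 149, or 1.64 and 1.25 CPM, at least 10.4-fold higher than a floor of 3 counts over both KIRA8 libraries (adjusted p = 0.0184, edgeR). It also had 0 counts in all 3 saline mice of S135. In S061 it had 3.39 to 4.00 CPM in control and 1.90 to 2.11 CPM in KIRA8 mice, also without overlap, and its log2 fold change there was -0.85 (adjusted p = 0.430, edgeR).

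ENSMUSG00000032363 had 23 and 12 counts in the S135 control mice, at least 8.02-fold higher than the same floor (adjusted p = 0.0184, edgeR). Unlike the other gene it was present in saline mice, at 0.721 to 1.68 CPM. In S061 the KIRA8 mice, at 6.29 to 11.5 CPM, enclosed the control mice, at 7.88 to 8.57 CPM. Both calls rest on few counts and were lost when KIRA8 mouse 154 or 155 was left out.

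A test of the difference between the batches' KIRA8 effects called 5 genes, 1 with a higher effect in S135 and 4 with a lower one (0.0259% called; 1562 at an unadjusted p below 0.05; edgeR). ENSMUSG00000035805 had 25.8, 37.0 and 33.1 CPM in S061 KIRA8 mice against 6.59, 7.42 and 7.93 CPM in control mice. In S135 it had 64.6 and 49.0 CPM in KIRA8, 63.8 and 63.2 CPM in control and 50.1 to 51.8 CPM in saline mice. The effect was present in S061 (log2 2.12) and near 0 in S135 (-0.16), with a difference of -2.28 ± 0.34 (SE; adjusted p = 0.00971, edgeR).

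ENSMUSG00000041247 had the same pattern. It had 84.6, 128 and 110 CPM in S061 KIRA8 mice, 18.0, 35.1 and 28.4 CPM in their controls, and 250 to 350 CPM in the 7 S135 mice. The difference was -2.24 ± 0.32 (SE; adjusted p = 0.00743, edgeR). For both genes the S061 control mice had the lowest levels, and the S061 KIRA8 mice lay between them and all S135 mice.

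ENSMUSG00000000942 went the other way, with a difference of 3.08 ± 0.50 (SE; adjusted p = 0.0193, edgeR). It was scarce in S061, with 0.195, 0.162 and 0.108 CPM in KIRA8 mice, or 10 counts in all, and 0.431, 0.975 and 0.920 CPM in control mice. In S135 it had 8.64 CPM in both KIRA8 mice, 4.65 and 5.54 CPM in control mice and 4.20 to 6.39 CPM in saline mice. Its call was lost in 5 of 10 fits with 1 mouse left out, with adjusted p up to 0.129. ENSMUSG00000032363 was also among the 5, with a difference of -7.91 that rests on its 0 counts in S135.

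**Figure D3:**
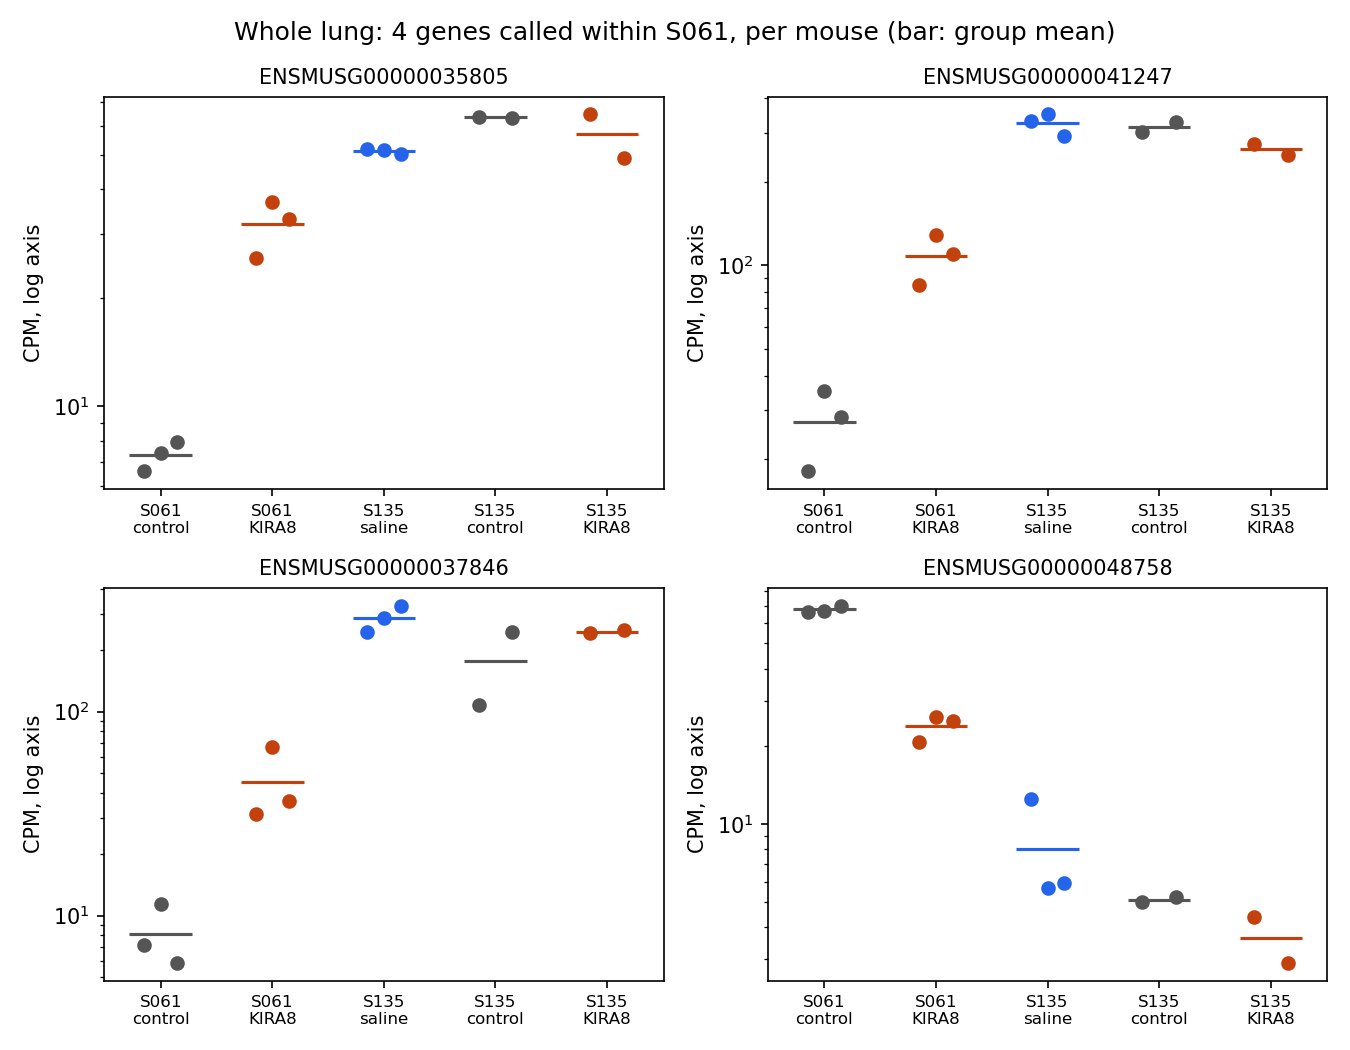
CPM on log axes, 1 point per mouse with a bar at each group's mean, for 4 genes called within S061, of which ENSMUSG00000035805 and ENSMUSG00000041247 also differed between batches. In S061 (n = 3 per arm) KIRA8 and control points are separated in every panel, for example 20.9 to 25.9 against 66.0 to 70.1 CPM for ENSMUSG00000048758; S135 levels (n = 2 per bleomycin arm, n = 3 saline) differ from those of S061 in each.

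The bleomycin and saline mice of S151 given Axum8, which are in neither arm, showed the change with bleomycin under that agent rather than a vehicle. In a fit of S151 whole lung alone, 406 genes (2.33%) were raised and 71 (0.408%) lowered by bleomycin of 17420 tested (adjusted p below 0.05, edgeR). Of the 80 genes higher with KIRA8, 66 had a negative bleomycin change there and 14 a positive one; 2 were called lowered and 0 raised. Of the 43 lower genes, 42 were tested in S151, 40 had a positive bleomycin change and 12 were called raised. Across all genes, 47.5% had a positive change. The genes KIRA8 lowered were thus mostly on the side that bleomycin raised in other mice, by a median log2 change of 0.44, and those it raised were mostly on the other side, with a median of -0.26.

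Read from the other side, genes that bleomycin raised in S151 were lower with KIRA8 as a group. Of 398 tested outside the S061-high set, 0 were called higher and 12 (3.02%) lower with KIRA8, where 0.415% and 0.233% of all genes were, and 15.1% had a positive KIRA8 effect, against 48.4% of all genes. The median log2 effect was -0.52, with -0.31 in S061 and -0.73 in S135, beside a median of -0.00125 over all genes. The 71 genes lowered by bleomycin had a median of 0.30, with 0.26 in S061 and 0.34 in S135; 91.5% were positive, 2 (2.82%) were called higher and 0 lower. Most of the 398 and 71 genes did not pass the test singly.

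Over both batches the median KIRA8 effect followed the size of the bleomycin change, as did the gap between the control mice of S135. Genes raised in S151 by less than 1 on the log2 scale had a median KIRA8 effect of -0.21, those raised by 1 to 2 had -0.57, those raised by 2 to 3 had -0.85 and the 44 raised by more than 3 had -0.94. The last step was not seen in S061, where the medians of the upper classes were -0.51 and -0.40, while S135 had -1.15 and -1.52. Genes lowered by less than 1 had a median of 0.19 and the 29 lowered by more had 0.66. Single genes of the most strongly raised class varied widely, with quartiles of -1.35 and 0.03. Over the raised classes, control mouse 148 of S135 had medians of 0.16, 0.31, 0.51 and 0.74 on the log2 scale. Control mouse 149 had -0.16, -0.31, -0.51 and -0.74, both as differences from the mean of these control mice. A graded size was thus also seen between mice of the same arm, and the arms were not tested against it.

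**Figure D4:**
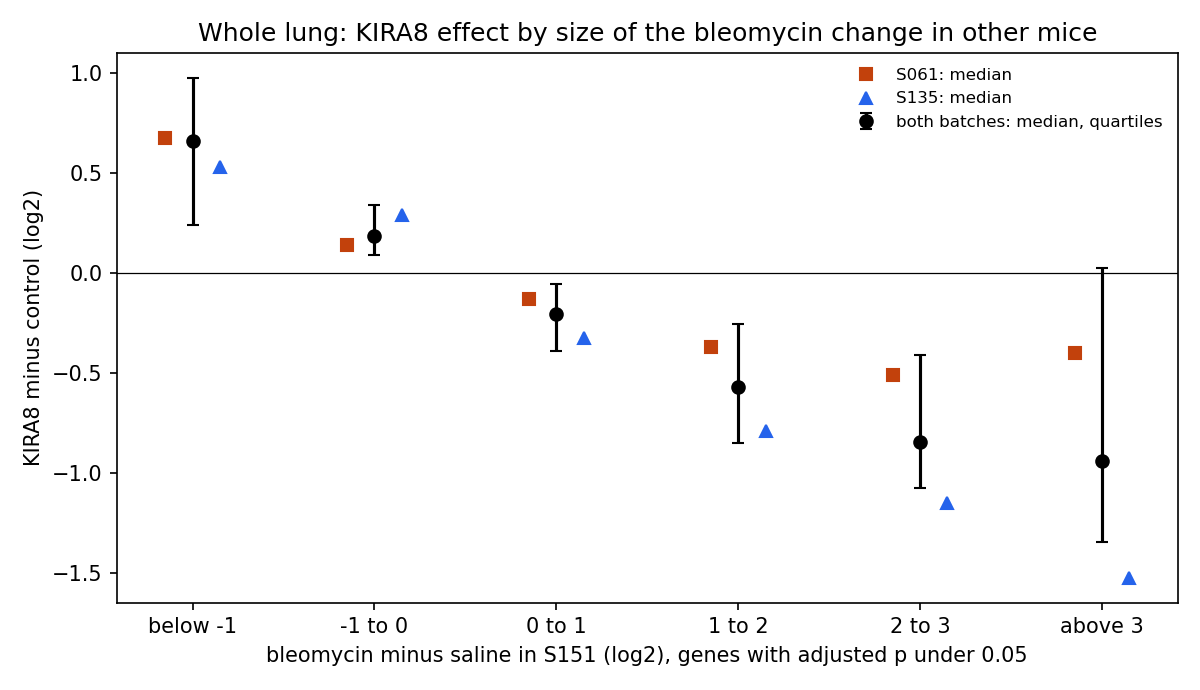
Median log2 KIRA8 effect in whole lung for genes grouped by their bleomycin change in S151 mice (adjusted p below 0.05), over both batches (black, with quartiles over genes), in S061 (orange squares) and in S135 (blue triangles). Medians over both batches go from 0.66 for the most lowered class to -0.94 for the most raised class.

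Each mouse was then placed by the median of these genes, as a log2 difference from the mean of its batch's control mice. For the 398 raised genes, KIRA8 mice 20, 32 and 41 of S061 lay at -0.09, -0.67 and -0.32, and control mice 17, 31 and 45 at -0.03, 0.12 and -0.03. In S135, KIRA8 mice 154 and 155 lay at -0.65 and -0.62, control mice 148 and 149 at 0.32 and -0.32, and the saline mice at -1.10, -1.05 and -1.01. All KIRA8 mice lay below the control mice of their batch, mouse 20 only narrowly, and the S135 KIRA8 mice lay between control and saline. The 2 control mice of S135 differed from each other by about as much as the arms did, and without control mouse 148 the median effect over both batches shrank from -0.52 to -0.30.

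For the 71 lowered genes, KIRA8 mice 20, 32 and 41 lay at 0.08, 0.49 and 0.26 against -0.08, -0.10 and 0.13 in the S061 control mice. KIRA8 mice 154 and 155 lay at 0.39 and 0.28 against -0.23 and 0.23 in control mice, and saline mice at 0.50, 0.60 and 0.55. Here the S061 arms overlapped, since control mouse 45 lay above KIRA8 mouse 20. Mouse 32 had the largest shift of the S061 KIRA8 mice in both groups of genes, and mouse 20 the smallest.

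**Figure D5:**
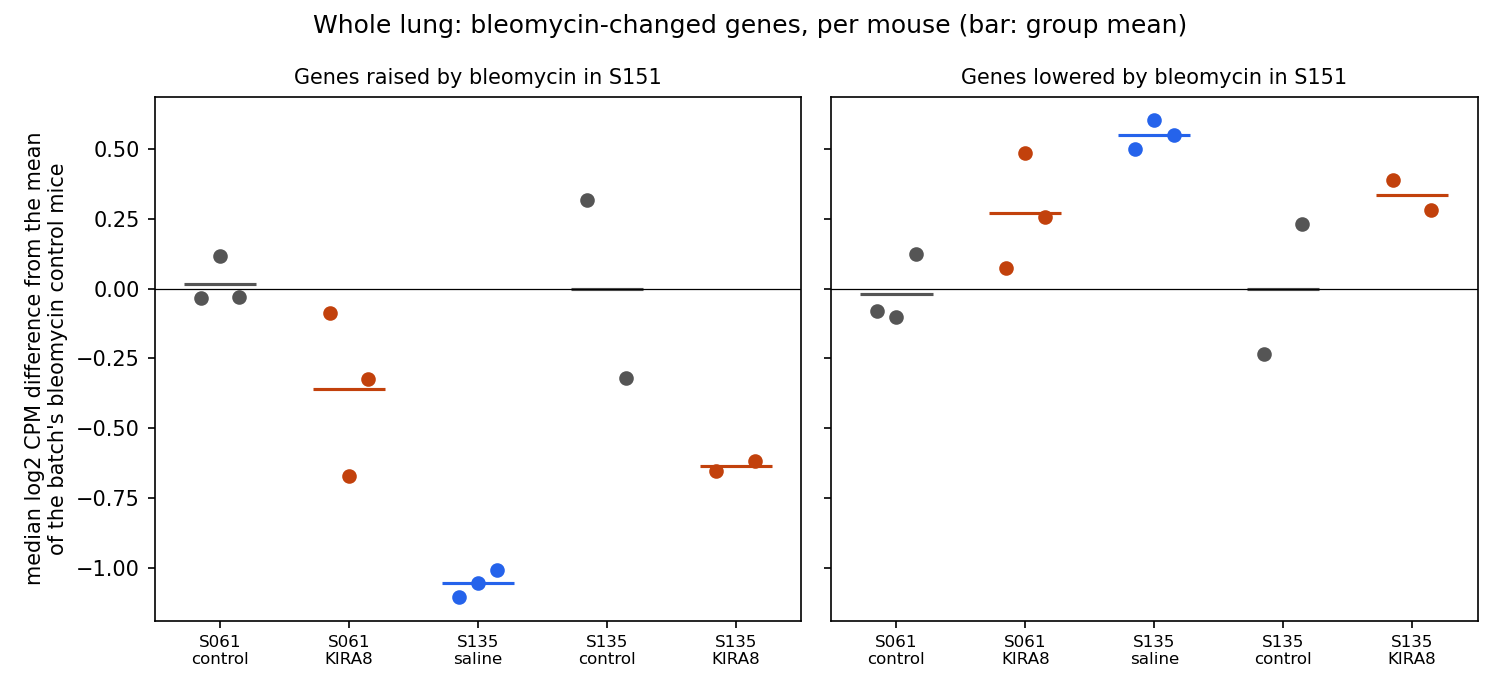
Median log2 CPM difference from the mean of the batch's bleomycin control mice over genes raised (left, 398 genes) and lowered (right, 71 genes) by bleomycin in S151, 1 point per mouse with a bar at each group's mean (n = 3 per S061 arm and S135 saline, n = 2 per S135 bleomycin arm). On the left KIRA8 mice of S135 lie at -0.65 and -0.62, between the control mice and the saline mice near -1.05.

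Saline mice of S151 also gave each gene's compartment, from epithelial against whole lung libraries of the same mice (at least 2-fold with adjusted p below 0.05, edgeR with mouse as a term; 13.1% of 15839 genes enriched and 23.1% depleted). Medians of both compartments lay near 0. The 2033 epithelium-enriched genes had a median KIRA8 effect of -0.03, with 14 (0.689%) higher and 2 (0.0984%) lower. The 3624 epithelium-depleted genes had 0.03, with 15 (0.414%) higher and 9 (0.248%) lower, beside 0.415% and 0.233% of all genes. Within the genes raised by bleomycin, the 90 epithelium-depleted genes had a median of -0.71 and the 61 epithelium-enriched genes -0.25. KIRA8 mice lay at -0.15, -0.95 and -0.47 in S061 and -1.04 and -0.81 in S135 for the depleted ones, and at 0.00, -0.31, -0.28, -0.30 and -0.43 for the enriched ones. Each of the 5 mice was thus lower for the depleted genes, whose median bleomycin change in S151 was itself larger (1.59 against 1.06). So were control mice 45 and 149 and all saline mice of S135, whereas control mice 17, 31 and 148 were higher for the depleted genes. The 10 genes lowered by bleomycin and enriched in epithelium had a median KIRA8 effect of 1.12, with 1.27 in S061 and 0.36 in S135, and the 21 depleted ones had 0.27. The difference between these classes of genes was not tested.

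Genes chosen by their difference with 3G9, a treatment given in S151 beside bleomycin, were placed on the KIRA8 comparison too. The labels name the agent and the series title speaks of TGFβ inhibition. The number called for 3G9 itself by edgeR was small, 6 genes of 19283 (0.0311%, with 1166 at an unadjusted p below 0.05). Genes with an unadjusted p below 0.01 in a fit of S151 alone were therefore used (1.15% higher and 0.586% lower, edgeR). By chance alone a share of about 0.01 of all genes would pass this cut, both directions together. Many of the chosen genes may therefore not differ with 3G9. The 195 higher with 3G9 had a median KIRA8 effect of -0.26, with 21.0% positive, and the 99 lower with 3G9 had -0.07, with 46.5% positive. Their median bleomycin changes in S151 were 0.41 and 0.33. Against the control mean, the first group lay at 1.95 in 3G9 mouse 218 and at 0.50 to 1.06 in the other 3G9 mice. Chosen without mouse 218, the groups held 100 and 89 genes, with median KIRA8 effects of -0.26 and -0.15. All 3G9 values are set against the S151 control mice, which also define the bleomycin change.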

How the data were processed

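Read counts per Ensembl gene came from 1 table that the authors deposited, not normalized. STAR 2.5.2b and GRCm38 are named per the submitters' processing notes; the counting program and annotation were not given in sources used here. Columns were matched to libraries by mouse number and a compartment letter, with I read as whole lung. Of 42548 genes, 10826 had no count.

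Counts were analysed in R 4.3.3 with edgeR 4.0.16 (TMM, filterByExpr on arm, robust quasi-likelihood test, Benjamini-Hochberg, threshold 0.05). All 24 whole lung libraries entered with 1 mean per batch and arm (16 residual degrees of freedom). The SE of a log2 fold change is its size divided by the square root of the test's F statistic. It therefore rests on the spread shared over the 24 libraries, not on the compared mice alone. DESeq2 1.42.0, limma 3.58.1 (voom), other scalings, filters, covariates and left-out mice were alternatives. The 146 genes limited to S061 were removed first.

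The members, the design, the gene groups and the planned lists were chosen with earlier results of these data known. This includes the choice of the 24-library fit over the 10-library fit with additive terms, which calls 0 genes. The rule for named genes took those with the largest log2 fold change among called genes whose sign matched in both batches and whose higher arm averaged at least 5 CPM. For S061 alone, the sign in S135 was not used. The exclusion of S061-high genes, the minimum of 5 counts per library and the limit of 2 IDs per direction were added after values were seen. The genes of S135 and of the batch difference were taken from the few called there. The minimums of 5 CPM and 5 counts were kept for ENSMUSG00000035805 and ENSMUSG00000041247. They were not applied to the genes of S135 or to ENSMUSG00000000942. The planned lists of gene symbols and promoter motifs could not be applied, since 0 IDs matched a symbol. The groups by bleomycin change, compartment and 3G9 were formed after the data were seen.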

Additional observations from a re-analysis of the deposited data

Results flagged for a closer look

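Of 30 groups of 5 mice examined for a mouse far from the rest, 2 had one. Both were KIRA8 mouse 32 of S061, at 47.0 CPM for ENSMUSG00000021123 and 15.4 CPM for ENSMUSG00000025330. The groups pool both batches. The KIRA8 effect differed between batches in 5 genes by edgeR's test of the difference, of which 4 are given by ID, as S135 minus S061 on the log2 scale: 3.08 for ENSMUSG00000000942, -7.91 for ENSMUSG00000032363, -2.28 for ENSMUSG00000035805 and -2.24 for ENSMUSG00000041247.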

How the results depend on the processing

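The number of genes called over both batches was 125. It was 698 with DESeq2, 551 with limma voom, 63 with equal weight of the batches, 30 with the share of S061-limited counts as a term and 0 with only the 10 libraries and additive terms; leaving out 1 mouse gave 26 to 285. With DESeq2 the split was 396 higher and 302 lower, and with voom 288 and 263, against 80 and 45. In S061 the number was 154, 536 with DESeq2 and 1174 with voom, and 33 to 189 with 1 mouse left out. In S135 it was 2, then 167 with DESeq2, 1 with voom, 1 with the share as a term, 0 with its 4 libraries alone and 0 to 261 with 1 mouse left out. For the difference between batches it was 5, then 112 with DESeq2, 3 with voom, 0 with the share as a term and 0 to 198 with 1 mouse left out. In fits added after the data were seen, the number over both batches was 301 without the library of 3G9 mouse 218, and the 10 libraries with 1 mean per batch and arm gave 10 for S135 and 3 for the difference. The causes were not tested. With 1 mouse left out, the largest numbers over both batches, in S135 and for the difference came without control mouse 148. That fit left only mouse 149, with its S061-high transcripts, as S135 control, and S061-high genes were not kept out of the numbers. Of 415 values for single genes and gene groups under the alternatives, 79 lost the threshold with their direction kept. All 79 were values of single genes, since the medians of gene groups had no test and could not lose a threshold. Of the others 1 changed sign, the median of epithelium-enriched genes, which had no test and was at -0.03 and 0.0028 without control mouse 149. The median of genes raised by bleomycin ranged from -0.57 to -0.48 over 13 alternatives and from -0.64 to -0.30 with 1 mouse left out; that of lowered genes from 0.29 to 0.34 and from 0.21 to 0.40. No paired analysis was possible because KIRA8 and control mice share no mouse number. Depth limits the genes at 0 counts in S135.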
